A study of Saccharomyces cerevisiae with 10 samples.

Results

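The seripauperin genes PAU1 to PAU8 are the 8 members of the yeast PAU family with the lowest numbers, taken by their systematic identifiers YJL223C (PAU1), YEL049W (PAU2), YCR104W (PAU3), YLR461W (PAU4), YFL020C (PAU5), YNR076W (PAU6), YAR020C (PAU7) and YAL068C (PAU8). All 8 were found among the 6600 genes listed. Polyadenylated RNA was sequenced from 5 Saccharomyces cerevisiae strains of the S288C background that fermented supplemented white grape juice in cultures of 5 mL, with 2 separate fermentations, and so 2 libraries, for each strain. The med15 deletion strain lacks MED15. The Med15 protein sits in the tail of Mediator, through which DNA-bound activators reach RNA polymerase II. The strains WY7, WY15 and WY23 carry the MED15 alleles of those names, and LAB, the strain labelled wild type, carries the LAB allele. All 4 alleles are described as integrated. Each culture was collected when it had lost 35% of its weight, after 48 h for the deletion and after about 37 h for the 4 MED15 strains, so that genotype and hours of fermentation cannot be told apart in comparisons with the deletion.

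Seripauperins are small secreted proteins that are poor in serine and are related to the serine-rich Tir mannoproteins of the cell wall. Their genes form a large family of near-identical genes, most of them close to chromosome ends, and are known for rising when oxygen is scarce, as in wine fermentation, and for being held down by haem in aerated cultures. Transcription of the related DAN and TIR genes at low oxygen is driven by Upc2 and restrained by the haem-dependent repressors Rox1 and Mot3. What each PAU protein does is mostly unknown, so the members are described by level, place in the genome and sequence.

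The members differ in sequence enough that most of them can be told apart by reads of 150 bases. Across their coding sequences the 28 pairs of members share 79.8 to 97.8% of their bases. The first 60 coding bases are shown for the 5 members on which most results turn, in the R64 build, with capitals at each base that differs from PAU1. PAU1 (chrX:9079-9138, minus strand) is one of the members with almost no reads. PAU2 (chrV:63728-63787, plus strand), PAU5 (chrVI:99540-99599, minus strand) and PAU7 (chrI:176964-177023, minus strand) are the abundant ones. PAU3 (chrIII:307801-307860, plus strand) was low in all MED15 libraries.
PAU1: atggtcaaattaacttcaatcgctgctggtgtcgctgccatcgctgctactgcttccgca
PAU2: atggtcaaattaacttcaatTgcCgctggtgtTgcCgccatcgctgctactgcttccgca
PAU5: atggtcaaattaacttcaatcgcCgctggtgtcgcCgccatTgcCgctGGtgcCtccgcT
PAU7: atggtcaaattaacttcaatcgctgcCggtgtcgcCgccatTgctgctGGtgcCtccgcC
PAU3: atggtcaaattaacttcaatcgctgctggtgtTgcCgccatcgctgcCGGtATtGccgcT
PAU5 differed from PAU1 at 8 of these bases, PAU7 at 7 and PAU3 at 9, while PAU2 differed at 4. Every window of 150 bases within PAU2, PAU3, PAU4, PAU5, PAU7 and PAU8 occurs at a single place in the R64 genome. None of the 214 windows in PAU1 does, because PAU14 is identical to PAU1 over the whole coding sequence, and none of the 214 in PAU6 does, because PAU18 is identical to PAU6. The margin is narrower for PAU4, where 19.2% of windows differ by at least 3 bases from every other PAU gene, than for PAU3 (44.7%), PAU8 (41.6%), PAU5 (88.6%), PAU2 (88.8%) or PAU7 (100%). How reads matching several places were counted, and whether strand was used, is not given in the sources used here, so the levels of PAU1 and PAU6 are uncertain.

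The upstream regions split the members into groups as well. The stretch from base 280 to base 201 before the start codon is shown on the strand of each gene for the 3 abundant members and for PAU3, PAU4 and PAU6. The stretches lie at chrV:63448-63527 (PAU2, plus), chrVI:99800-99879 (PAU5, minus), chrI:177224-177303 (PAU7, minus), chrIII:307521-307600 (PAU3, plus), chrXII:1062639-1062718 (PAU4, plus) and chrXIV:781638-781717 (PAU6, plus) in R64. Capitals mark TATACGA, the reverse strand of the sterol response element TCGTATA that Upc2 is known to bind, or TCGTTCAG, a match to TCGTTNAG. That pattern was searched for the anaerobic AR1 element with any base at N, so a match need not be that element.
PAU2: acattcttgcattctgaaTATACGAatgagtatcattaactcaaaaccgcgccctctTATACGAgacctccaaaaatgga
PAU5: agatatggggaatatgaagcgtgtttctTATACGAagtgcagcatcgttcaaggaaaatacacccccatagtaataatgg
PAU7: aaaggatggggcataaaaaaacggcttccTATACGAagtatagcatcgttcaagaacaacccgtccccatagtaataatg
PAU3: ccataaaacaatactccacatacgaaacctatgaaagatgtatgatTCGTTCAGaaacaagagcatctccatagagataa
PAU4: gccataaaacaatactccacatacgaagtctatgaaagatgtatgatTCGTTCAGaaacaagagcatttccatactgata
PAU6: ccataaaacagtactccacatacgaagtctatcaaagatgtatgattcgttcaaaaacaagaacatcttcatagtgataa
Within 500 bases before the start codon, searched on both strands, TCGTATA was present in 3 of the 8 members, PAU2, PAU5 and PAU7, and in 6 of the 16 other PAU genes, against 7.0% of 6000 promoters of the same length. TCGTTNAG, which shares its first 4 letters with TCGTATA, was present in 5 of the 8 members, PAU2, PAU3, PAU4, PAU6 and PAU8, and in 14 of the 16 others, against 5.12% of promoters. PAU1 held neither motif, and the shown stretch of PAU6 held neither, although a TCGTTNAG lies elsewhere in its 500 bases. The hexamer ATTGTT at the core of the Rox1 site was too common to set any gene apart, at 48.9% of promoters. The upstream regions are themselves copies in part, with 92.0% of bases shared between PAU1 and PAU3, so the members are not independent cases of a motif. A match describes letters and does not show that a protein binds there.

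The libraries held 22.7 to 29.3 M gene-assigned reads. All values are the authors' normalized counts, which are reads divided by a size factor for each library, and changes are on the scale of log2(normalized count + 1) with the standard error (SE) of limma. A gene was called at a Benjamini-Hochberg adjusted p under 0.05 over the 6065 genes with a mean of at least 10. MED15 had 12.1 and 11.9 normalized counts in the deletion libraries, against 8238 to 10960 in the 8 libraries of the MED15 strains. URA3, a common selection marker, had 3213 and 3214 normalized counts in the deletion libraries and 0 reads in the MED15 libraries, so the strains also differ in this gene. MF(ALPHA)1, the alpha mating pheromone gene, had 3255 and 3645 normalized counts in the deletion libraries and 38840 to 56560 in the MED15 libraries, while the a pheromone gene MFA1 lay at 91.9 to 226 in all 10. Normalized counts sum to 20.8 and 20.9 M in the deletion libraries and to 25.9 to 29.5 M in the others, so the choice of scaling bears on every comparison with the deletion. In bulk RNA, fewer cells making a transcript and less of it per cell cannot be told apart.

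Members differed in abundance by far more than strains did. Per kilobase of annotated gene, the MED15 libraries ranged over 1395 to 1735 normalized counts for PAU2 and over 1307 to 1822 for PAU7, ranges that overlap. PAU5 followed with 607 to 720 normalized counts per kilobase. PAU4 (48.7 to 135) and PAU6 (35.8 to 143) overlapped each other, and PAU3 lay at 9.75 to 35.4. PAU7 is annotated with only 168 bp, against 363 to 375 bp for the other members, so its level per kilobase rests on a short target. PAU2, PAU7 and PAU5 are therefore the bulk of what was measured, and the order between PAU2 and PAU7 was not separated by the spread of the MED15 libraries. In the deletion libraries PAU7 lay above PAU2, at 3097 to 3289 against 2358 to 2404 normalized counts per kilobase.

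PAU1 and PAU8 had almost no reads. PAU1 had 0.81 normalized counts in one deletion library, from a single read, and 0 reads in the other deletion library and in all MED15 libraries. Its identical copy PAU14 had 0 reads in every library. PAU8 had 0.81 and 0 normalized counts in the deletion, against 1.26 and 0 for WY7, 0.92 and 0 for WY15, 0 and 0 for WY23 and 0.91 and 1.88 for LAB, from 6 reads in all. A count of 0 allows a level of up to 3 reads, which is 2.39 to 3.83 normalized counts depending on the library and covers counting error only. Both genes fell under the minimum mean of 10 and no fold change is given for them. PAU8 has only windows of 150 bases that are unique in the genome, whereas PAU1 has none. For PAU1 the lack of reads therefore does not show a lack of transcript.

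The 3 abundant members are those far from chromosome ends. PAU2 lies 63.73 kb from the nearest end of its chromosome, PAU5 99.23 kb and PAU7 53.2 kb, while PAU1, PAU3, PAU4, PAU6 and PAU8 lie within 20 kb. The same ordering holds in the 24 PAU genes of the reference. Only 5 of them lie farther than 20 kb from an end, namely PAU7, PAU2, PAU5, PAU17 and PAU23, and these had the 5 highest mean levels per kilobase over the 10 libraries, at 1870, 1730, 717, 554 and 445 normalized counts per kilobase. The next was PAU19 at 188. These 5 genes are also the most distinct in sequence. In each, 88.6 to 100% of windows of 150 bases differ by at least 3 bases from every other PAU gene. No other PAU gene long enough for such a window exceeded 59.8%, the share in PAU20. Since the treatment of reads matching several places is not known, position and distinctness cannot be told apart as to level. This is a description of related genes that share sequence, and no test was made.

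**Figure D1:**
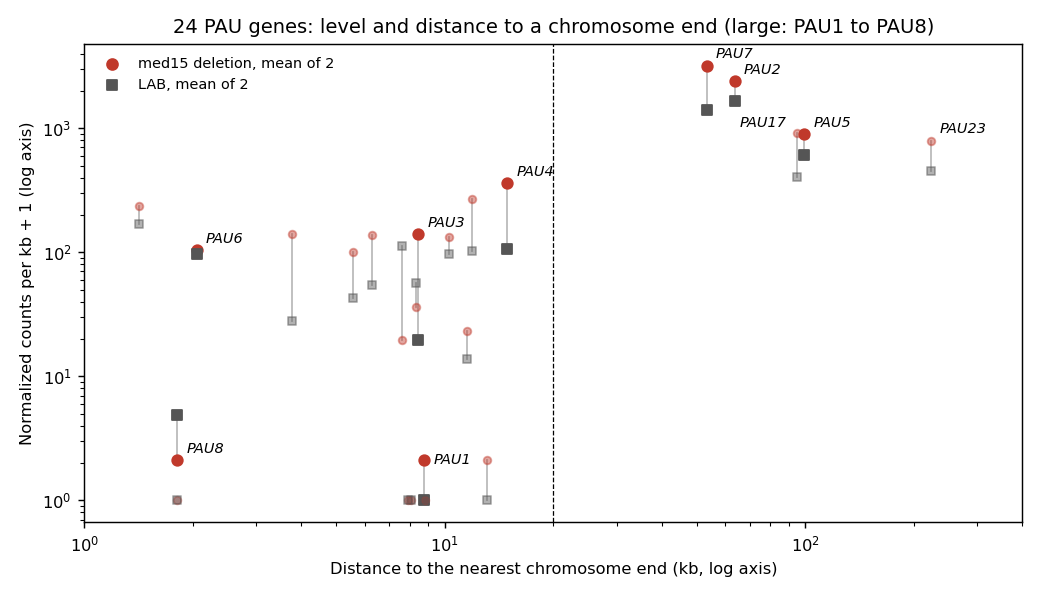
Mean level (normalized counts per kb + 1, log axis) of the 24 PAU genes against distance to the nearest chromosome end (kb, log axis), as red circles for the med15 deletion and grey squares for LAB, each a mean of 2 libraries, with PAU1 to PAU8 drawn larger and a dashed line at 20 kb. The 5 genes to the right of the line lie above the others in both strains. PAU1 and PAU8 lie near the bottom, as do PAU14, PAU16, PAU18, PAU21 and PAU22. The copies near ends are also less distinct in sequence, and its bearing on level was not tested.

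In the med15 deletion, PAU2, PAU3, PAU4, PAU5 and PAU7 were higher than in LAB, by 1.45-fold to 7.26-fold, except that PAU5 turned to slightly lower after quantile normalization. PAU6 was not separated from LAB. These 5 members also had both deletion libraries above all 8 libraries of the MED15 strains. By limma, 18.9% of all genes tested were called higher and 17.7% lower in this comparison, and 26.6% of genes had both deletion libraries above all 8 MED15 libraries. Among the 1435 genes with a mean under 1000, a limit chosen after the values were seen and under which every member falls, 38.9% were called higher and the median log2 change was 0.40. The median over the 6 members tested was 0.88, and 0.00 over all genes tested. PAU3 passed the minimum mean only through its deletion libraries, since its mean over the MED15 libraries was 8.13. It is included in the 5 called and in the median of 0.88. With PAU3 set aside, the middle value of the members tested was 0.55, that of PAU5.

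PAU2 had 856 and 873 normalized counts in the deletion, against 539 and 506.5 for WY7, 614 and 618 for WY15, 512 and 559 for WY23 and 630 and 565 for LAB. The deletion libraries agreed closely and stood clear of the rest. The log2 change against LAB was 0.53 (SE 0.10, adjusted p = 0.0038 by limma), and it was 0.30 (adjusted p = 0.037) after quantile normalization. PAU2 made up 43.8 and 44.7% of the summed level of the members in the deletion and the largest share in every strain.

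PAU7 had 520 and 553 normalized counts in the deletion, against 256 and 236 for WY7, 258 and 273 for WY15, 306 and 272 for WY23 and 247 and 219.5 for LAB. No MED15 library came near the deletion, and the log2 change against LAB was 1.20 (SE 0.12, adjusted p = 0.00028 by limma), a 2.30-fold difference. It had the lowest adjusted p of the members, and after quantile normalization its log2 change was 0.75 (adjusted p = 0.0026).

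PAU5 had 303 and 362 normalized counts in the deletion, against 244 and 256.5 for WY7, 263 and 266 for WY15, 252 and 248 for WY23 and 224 and 228 for LAB. The groups did not overlap, but the gap between the lower deletion library and the highest WY15 library was small. PAU5 was higher by a log2 of 0.55 against LAB (SE 0.12, adjusted p = 0.0077 by limma), and after quantile normalization the sign turned, at -0.08 (adjusted p = 0.73). In a fit of the 4 deletion and LAB libraries alone it missed the threshold (adjusted p = 0.056).

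PAU3 had 62.3 and 43.0 normalized counts in the deletion, against 6.28 and 5.10 for WY7, 4.62 and 12.0 for WY15, 13.3 and 9.78 for WY23 and 3.66 and 10.4 for LAB. It was low in every MED15 library, some of which rest on as few as 4 reads, and the LAB libraries were themselves far apart. Its log2 change of 2.86 against LAB (SE 0.57, 95% interval 1.56 to 4.16, adjusted p = 0.0056 by limma) was the least exact of those called. PAU3 was tested only because its deletion libraries lifted its mean over the minimum, so its call was favoured by that filter and adds nothing to the count of members called. Without LAB replicate 1 it was 2.22, without LAB replicate 2 it was 3.50, and both were called.

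PAU4 had 149 and 111.5 normalized counts in the deletion, against 31.4 and 23.0 for WY7, 19.4 and 23.0 for WY15, 17.7 and 25.0 for WY23 and 27.4 and 49.0 for LAB. The higher LAB library was above all other MED15 libraries and still far under the deletion. The log2 change was 1.78 (SE 0.34, 95% interval 1.00 to 2.57, adjusted p = 0.0049 by limma) and 1.12 (adjusted p = 0.015) after quantile normalization.

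PAU6 had 23.5 and 51.0 normalized counts in the deletion, against 30.2 and 28.1 for WY7, 35.1 and 13.0 for WY15, 51.9 and 42.4 for WY23 and 24.7 and 44.3 for LAB. All strains overlapped, and the replicates of WY15 differed by a log2 of 1.37. The log2 difference between the deletion and LAB was 0.06 (SE 0.53, adjusted p = 0.93 by limma), with a 95% interval of -1.15 to 1.28. That interval takes in the change seen for PAU7, so a difference of that size was not detectable for PAU6. Reads lying wholly within its coding sequence cannot be told from those of PAU18, which is identical there. The upstream regions of PAU6 and PAU18 share 92.4% of bases, and whether reads reaching beyond the coding sequence separate these genes was not tested. PAU6 is listed with 350 reads over all libraries and PAU18 with a single read.

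**Figure D2:**
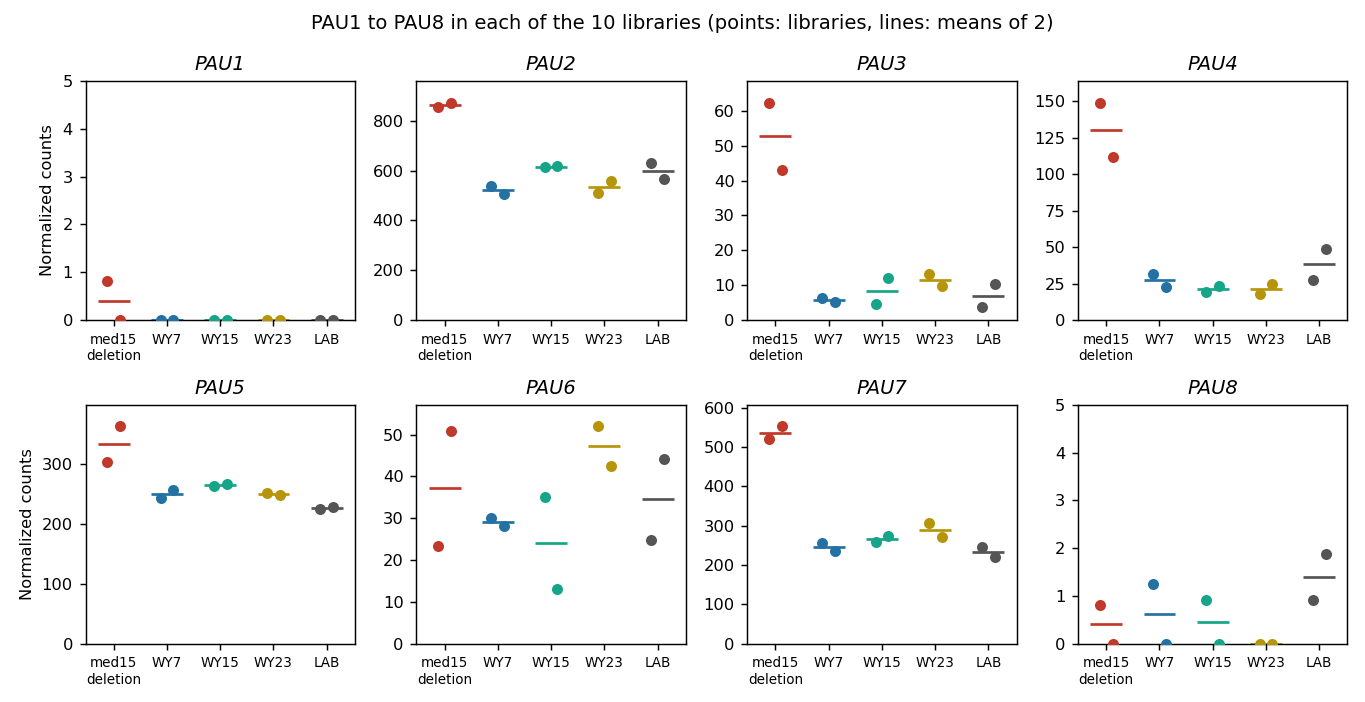
Normalized counts (linear axes from 0, 1 panel for each gene) of PAU1 to PAU8 in the 10 libraries, by strain from the med15 deletion on the left to LAB on the right, with points for libraries and lines for means of 2. The deletion points stand above all others for PAU2, PAU3, PAU4, PAU5 and PAU7 (PAU5 fell to a log2 change of -0.08 after quantile normalization) and overlap them for PAU6, while PAU1 and PAU8 stay under 2 normalized counts.

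Reads assigned to the wrong one of the near-identical members do not alter their sum. Exchange with copies outside it, such as PAU14 and PAU18, still can, and so can dropping reads that match several places. The sum over PAU1 to PAU8 was 1916 and 1993 normalized counts in the deletion, against 1109 and 1055 for WY7, 1195 and 1204 for WY15, 1153 and 1155 for WY23 and 1157 and 1118 for LAB. The deletion averaged 1955 ± 54.3 and LAB 1138 ± 27.5 normalized counts (SD, n = 2 each), a ratio of 1.72. The MED15 strains were close together, and both deletion libraries were above all of them. With all libraries scaled to the same sum, which shifts the median of all genes by a log2 of 0.36, the ratio was 2.2. As a share of reads the members took 91.8 and 96.0 reads of every 1 M in the deletion, and 35.8 to 46.5 of every 1 M in the MED15 libraries.

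Against the mean of the 4 MED15 strains, 25.6% of all genes tested were called higher by limma. Among those with a mean under 1000 it was 49.6%, with a median log2 change of 0.43. The same 5 members were higher. PAU3 was again tested only through its deletion libraries, so the filter favoured its call and it adds nothing to that count. The log2 changes were 0.61 for PAU2 (SE 0.08, adjusted p = 0.00037), 2.64 for PAU3 (SE 0.45, adjusted p = 0.0017) and 2.28 for PAU4 (SE 0.27, adjusted p = 0.0003). They were 0.42 for PAU5 (SE 0.09, adjusted p = 0.006) and 1.06 for PAU7 (SE 0.09, adjusted p = 7e-05). PAU6 stayed at 0.14 (SE 0.42, adjusted p = 0.81). PAU5 again turned after quantile normalization, to -0.26 (adjusted p = 0.11), and without deletion replicate 2 it missed the threshold, at 0.29 (adjusted p = 0.073). This comparison shares the deletion and LAB libraries with the one before it and is not separate evidence.

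Among the 4 MED15 alleles no member was called. By limma 0% of all genes were called for WY7, WY15 or WY23 against LAB, and 0% by the F test for any difference among the alleles, with 0 genes also by edgeR for each allele against LAB. At an unadjusted p under 0.05 there were 0 members of 285 genes for WY7, 0 of 350 for WY15 and 1 of 560 for WY23. That one was PAU7, with 306 and 272 normalized counts in WY23 against 247 and 219.5 in LAB, a log2 difference of 0.31 (95% interval 0.04 to 0.58, adjusted p = 0.53 by limma). The libraries of the 2 strains did not overlap for this gene, and the difference failed the adjustment. Such a separation was also seen in PAU5 for every allele against LAB. Its share over all genes was not counted, so nothing is read from it. DESeq2 called 0 members for WY15, and for WY7 and WY23 it gave no adjusted p for any member. Of the genes to which DESeq2 gave an adjusted p, it called 16 higher and 1 lower of 2185 in WY7, 2 higher and 2 lower of 6065 in WY15, and 53 higher and 8 lower of 1362 in WY23. The F test gave 491 genes at an unadjusted p under 0.05 and 0 members.

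The intervals say how large a difference between alleles could have gone unseen. For PAU2 the 95% interval of the log2 difference to LAB ran from -0.41 to 0.03 in WY7, -0.18 to 0.27 in WY15 and -0.38 to 0.06 in WY23. For PAU5 it ran from -0.12 to 0.41 in WY7, -0.04 to 0.50 in WY15 and -0.12 to 0.41 in WY23. For PAU7 it ran from -0.19 to 0.35 in WY7, -0.08 to 0.46 in WY15 and 0.04 to 0.58 in WY23. The intervals of these abundant members were narrower than those of the other members tested. The upper limit of 0.50 for PAU5 in WY15 still came close to its change of 0.55 in the deletion. PAU4 gave -0.44 in WY7, -0.77 in WY15 and -0.77 in WY23, with intervals from -1.22 to 0.35, -1.56 to 0.02 and -1.56 to 0.01. Its LAB libraries, at 27.4 and 49.0 normalized counts, both stood above those of WY15 and WY23. The share of all genes with such a separation was not counted, so nothing is read from it. For PAU3 and PAU6 the intervals reached 1.70 or more on the high side in WY23, so little can be said of alleles there.

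**Figure D3:**
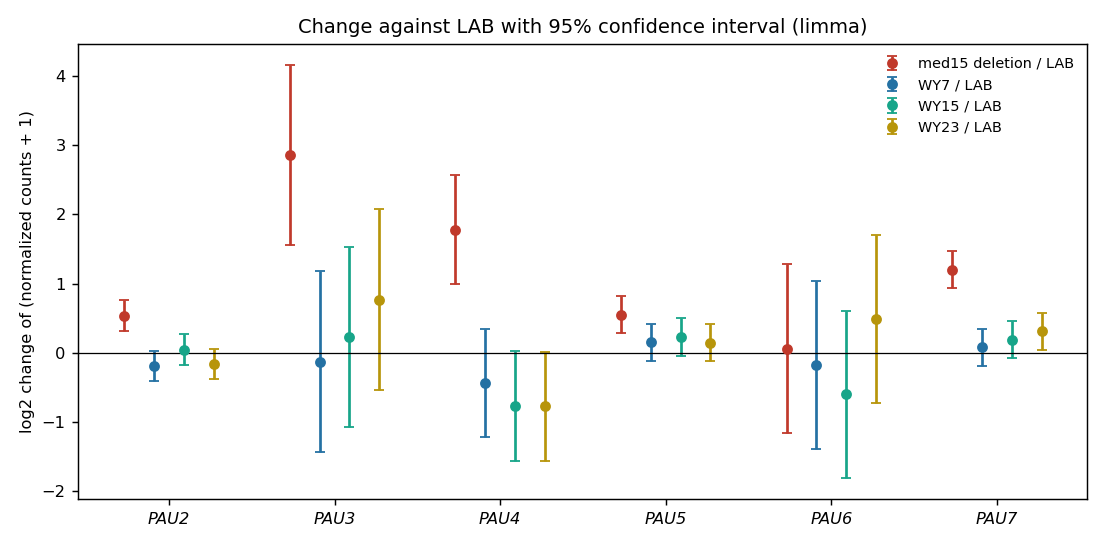
Log2 change of (normalized counts + 1) against LAB for the 6 members tested, in the med15 deletion, WY7, WY15 and WY23 from left to right, with points for the estimate and bars for the 95% confidence interval of limma. The deletion interval lies above 0 for PAU2, PAU3, PAU4, PAU5 and PAU7, although PAU5 fell to -0.08 after quantile normalization, and the PAU6 bars are wide.

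Of the 16 other PAU genes, 10 were tested, and 6 were called higher (60%) and 1 lower (10%) in the deletion against LAB. This split became 2 higher and 2 lower after quantile normalization. Over all genes tested 18.9% were called higher and 17.7% lower, and 38.9% were higher among those with a mean under 1000. The median log2 change was 1.00, and 0.34 after quantile normalization. PAU24 had 50.2 and 51.0 normalized counts in the deletion against 10.1 and 9.42 in LAB (log2 change 2.26, SE 0.47, adjusted p = 0.0073 by limma). Like PAU3 it passed the minimum mean only through the deletion libraries, since its mean over the MED15 libraries was 7.88, so it had to be higher to be tested at all. PAU9 went the other way, with 2.43 and 2.39 normalized counts in the deletion against 14.6 and 14.1 in LAB (log2 change -2.17, SE 0.57, adjusted p = 0.019, and 0.066 to 0.074 when any of these 4 libraries was left out), but its deletion libraries hold 3 reads each and its annotated 129 bp are identical to a stretch of PAU11. PAU19 (log2 0.49, adjusted p = 0.25) and PAU12 (0.46, adjusted p = 0.36) did not pass. The sum over PAU9 to PAU24 was 1011 and 1064 normalized counts in the deletion, against 548 and 530.4 in LAB.

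The DAN and TIR genes encode cell wall mannoproteins that share the low-oxygen programme with the PAU genes. Of the 6, DAN4 alone was called higher in the deletion against LAB (log2 change 0.72, SE 0.11, adjusted p = 0.0021 by limma), and the median was 0.24. That is 16.7% of the list, against 18.9% of all genes tested. DAN1 had 761 and 1129 normalized counts in the deletion, against 1264 and 2614 for WY7, 6054 and 233 for WY15, 2802 and 2442 for WY23 and 423 and 3020 for LAB. In WY15 and LAB its level thus differed between the 2 fermentations by more than the strain means differed, and its change against LAB was -0.29 (SE 1.40, adjusted p = 0.89). TIR1 did likewise, with 2545 and 122 normalized counts in WY15 and 176 and 1788 in LAB, and a change of 0.74 (SE 1.41, adjusted p = 0.71). TIR4, at 5484 normalized counts in the deletion and 3305 in LAB on average, changed by 1.05 (SE 0.83, adjusted p = 0.35).

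The summed PAU level differed far less between replicates than DAN1, TIR1, TIR3 or TIR4 in WY15 and LAB, while DAN4 replicates were also close, at 0.23 in WY15 and 0.07 in LAB. Replicate 1 exceeded replicate 2 by a log2 of 4.69 for DAN1 and 4.37 for TIR1 in WY15, where the PAU sum differed by -0.01. In LAB the differences were -2.83 for DAN1 and -3.34 for TIR1, and 0.05 for the PAU sum. The less abundant members did vary, since in LAB PAU3 differed by -1.29 between replicates and PAU4 by -0.81, in the same direction as DAN1. In WY15, however, PAU3 differed by -1.21, against the direction of DAN1. PAU6 differed in the direction of DAN1 in both strains, by 1.37 in WY15 and -0.82 in LAB.

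**Figure D4:**
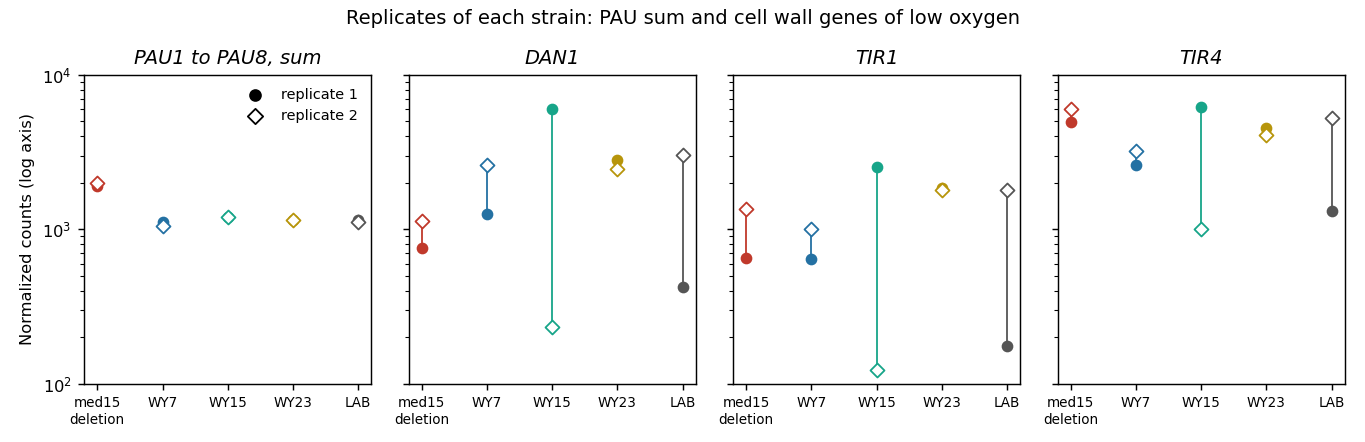
Normalized counts (log axis) of the PAU1 to PAU8 sum, DAN1, TIR1 and TIR4 in replicate 1 (filled circles) and replicate 2 (open diamonds) of each strain, from the med15 deletion on the left to LAB on the right, with lines joining the 2 replicates. The replicates of the PAU sum lie on or beside each other in every strain, whereas those of DAN1 in WY15 lie at 6054 and 233.

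Of 10 regulators of anaerobic genes, 4 were lower (40%) and 1 higher (10%) in the deletion against LAB, with a median log2 change of -0.42. Over all genes tested 17.7% were called lower and 18.9% higher. ROX1, the haem-dependent repressor of low-oxygen genes, had 4079 and 3555 normalized counts in the deletion against 6528 and 6873 in LAB (log2 change -0.81, SE 0.11, adjusted p = 0.0013 by limma). UPC2, the sterol-sensing activator, had 1208 and 1010 in the deletion against 1860 and 5354 in LAB (log2 change -1.51, SE 0.51, adjusted p = 0.049). Without LAB replicate 2 the change was -0.75 (adjusted p = 0.25). HAP1, the haem-responsive activator, changed by -1.10 (SE 0.34, adjusted p = 0.036), and by -0.68 (adjusted p = 0.19) without LAB replicate 2. Neither UPC2 (adjusted p = 0.12 and 0.18) nor HAP1 (adjusted p = 0.15 and 0.093) was called when deletion replicate 1 or 2 was left out. Both calls were also lost under the replicate block (adjusted p = 0.075 for UPC2 and 0.055 for HAP1), without either WY23 library (0.076 and 0.061) and with libraries scaled to the same sum (0.067 and 0.07). UPC2 was lost besides without either WY7 library (0.072), in the fit of deletion and LAB alone (0.069), with no filter (0.054) and with a minimum mean of 50 (0.051), and HAP1 after quantile normalization (0.051). With libraries scaled to the same sum the list gave 1 lower and 4 higher, ROX1 still being lower at -0.45 (adjusted p = 0.0065). Under that scaling 47.3% of all genes tested were called higher. MGA2 (-0.53, adjusted p = 0.41) and SUT1 (-1.49, adjusted p = 0.1) did not pass.

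Other genes known for use at low oxygen showed no common direction. Of 13, 3 were higher (23.1%) and 1 lower (7.69%), with a median log2 change of -0.04. Over all genes tested 18.9% were called higher and 17.7% lower, so the share higher is close to that of all genes. AAC3, the mitochondrial ADP/ATP carrier made without oxygen, averaged 334 normalized counts in the deletion and 74.0 in LAB (log2 change 2.19, SE 0.36, adjusted p = 0.0026 by limma). HES1, an oxysterol-binding protein, changed by 1.77 (SE 0.43, adjusted p = 0.014). OLE1, the fatty acid desaturase (-0.90, adjusted p = 0.27), and ERG25, a sterol methyl oxidase (-1.10, adjusted p = 0.11), did not pass.

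Genes outside the PAU family that lie wholly within 20 kb of a chromosome end were counted in the same way. Of 210 such genes 143 were tested, and 43.4% of these were called higher and 11.2% lower in the deletion against LAB, with a median log2 change of 0.50. Over all genes tested 18.9% were higher, and among those with a mean under 1000 it was 38.9% with a median of 0.40, so the share near ends is close to that of genes of low level and nothing particular to chromosome ends is read from it. Of the 143, 4 passed the minimum mean only through the deletion libraries. After quantile normalization 48 were higher and 23 lower, with a median of 0.20. YFR057W, which is one of these 4, had 54.2 and 78.8 normalized counts in the deletion against 1.83 and 1.88 in LAB, where 2 reads in each library give no usable fold change. HXK1, a hexokinase gene, was lower by a log2 change of -4.10 (SE 0.41, adjusted p = 0.00028 by limma). DLD3 (0.33, adjusted p = 0.095) and AAD10 (-0.08, adjusted p = 0.81) did not pass. Of 9 genes known to affect silencing near chromosome ends, in either sense, 1 was higher and 1 lower (11.1% each), with a median of -0.10. Both shares are below those of all genes tested, at 18.9% higher and 17.7% lower. The 2 called were RIF1, a telomere-binding protein (0.33, SE 0.10, adjusted p = 0.031), and RPD3, a histone deacetylase (-0.41, SE 0.09, adjusted p = 0.0082). HDA1 (-0.09, adjusted p = 0.46) and RAP1 (-0.24, adjusted p = 0.27) did not pass.

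Some of the genes beside the members were also called in the deletion. All neighbours called higher have a mean under 1000, and 38.9% of all genes tested under that mean were called higher. Nothing particular to neighbours is therefore read from the calls. Both neighbours of PAU3 were higher in the deletion against LAB, YCR102C by a log2 of 1.29 (SE 0.39, adjusted p = 0.032 by limma) and ADH7, an alcohol dehydrogenase gene, by 0.82 (SE 0.25, adjusted p = 0.033). YLR460C beside PAU4 was higher by 0.99 (SE 0.20, adjusted p = 0.0056), and YLR462W on its other side was near 0 in both strains. PAU5 lies between GAT1, an activator of nitrogen-use genes that was lower (-1.92, SE 0.17, adjusted p = 0.00018), and YFL019C, which was higher (1.02, SE 0.20, adjusted p = 0.0059). Around PAU2 no neighbour was called, with RML2 at -0.01 (adjusted p = 0.904) and TCA17 at 0.10 (adjusted p = 0.633). Beside PAU7, CDC15 did not pass (0.04, adjusted p = 0.857), and DFP1 was higher by 0.33 (SE 0.11, adjusted p = 0.0498), just inside the threshold. The neighbours of PAU6 and PAU8 had almost no reads, and of those of PAU1 YJL225C did not pass (0.21, adjusted p = 0.74) and VTH2 had almost none.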

How the data were processed

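Polyadenylated RNA of 10 cultures was sequenced as stranded libraries with paired reads of 150 bases. Per the submitters' processing notes, Trim Galore, Bowtie2, featureCounts, DESeq2 and the builds sacCer3 and R64 were used. Their versions, the use of strand and the treatment of reads matching several places were not given in the sources used here. The authors deposited 1 signal table, in which each gene's read count is divided by the size factor of its library. Every value was a whole multiple of the library's step (100% within 1e-06), and the recovered reads gave 22.7 to 29.3 M per library and were used for edgeR 4.0.16 and DESeq2 1.42.0 as alternatives. The main test was limma 3.58.1 (R 4.3.3), applied to log2(value + 1) for genes with a mean of at least 10 (6065 of 6600), in 1 fit of 5 group means with 5 residual degrees of freedom, a variance trend, two-sided tests and Benjamini-Hochberg adjustment over all genes tested. It was tested on simulated data. The 2 libraries per strain limit every test, and p-values measure the spread between separate fermentations.

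Gene names, positions and sequences came from the R64 reference of RefSeq, with 5917 identifiers matched and 683 not. Coding identity came from pairwise alignment, and unique windows of 150 bases and motifs within 500 bases before the start codon from exact search. The members and gene lists were chosen with earlier results of these data known. All 8 members, their neighbours, MED15, DAN1, TIR1, UPC2, ROX1 and HAP1 were named whatever their values. From each list at most 2 called genes with the largest change and at most 2 abundant genes that did not pass were named. PAU17 and PAU23 were named for position and level. Alternatives were other pseudocounts, filters, scalings and tools, the compared groups alone, a replicate block and each library left out.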

Additional observations from a re-analysis of the deposited data

How the results depend on the processing

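Against LAB, 5 members were called higher in the med15 deletion by limma, and the count was 5 with a replicate block and 5 to 5 with each library left out. The count includes PAU3, which passed the minimum mean only through the deletion libraries. Against the mean of the MED15 strains it was 5, again 5 with the block, and 4 to 5 with each library left out. A minimum mean of 50 gave 3 in both comparisons because PAU3 and PAU4 were then not tested. No member was called lower in either comparison, or in either direction among the alleles, under any alternative that gave an adjusted p. PAU5 reversed after quantile normalization, to -0.08 relative to LAB and -0.26 relative to the MED15 mean, and the cause was not tested. The ratio of the summed members in the deletion over LAB was 1.72, with 2.2 for libraries scaled to the same sum, 1.78 for all PAU genes, and 1.68 to 1.75 with each deletion or LAB library left out. Scaling to the same sum moved the genes called against LAB to 2871 higher and 425 lower, against 1147 and 1072, so that 87.1% of calls were higher in place of 51.7%. On the recovered reads edgeR called 1172 higher and 1069 lower. The replicate block changed no call of a member, and over all genes it gave 1063 higher and 988 lower. The numbers did not pair the libraries, since 3 of 10 correlations of deviations between strains exceeded 0.1 and they ranged from -0.5 to 0.41. DESeq2 gave no adjusted p for any member in WY7 or WY23. With 2 libraries per strain and few reads, PAU3 and PAU6 were the members measured least exactly, and for PAU1 and PAU8 depth allows no comparison.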

Other observations

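GDH2, which encodes the NAD-dependent glutamate dehydrogenase, had the profile over the 10 libraries most like that of the summed members among 5126 named genes with a mean of at least 50. The measure was the root mean square difference of centred log2 values, which was 0.05 for GDH2, with a median of 0.364 over the genes compared. The next were NMD5, a nuclear import receptor (0.059), STT4, a phosphatidylinositol kinase (0.062), SNF2, the ATPase of a chromatin remodelling complex (0.072), and PMT2, a protein mannosyltransferase of the endoplasmic reticulum (0.072). Since they were picked for their likeness to a sum that is high in the deletion, their log2 changes against LAB only describe that choice, at 0.83 for GDH2, 0.76 for NMD5, 0.76 for STT4, 0.78 for SNF2 and 0.97 for PMT2. Among the members the measure was smallest for PAU2 (0.098), PAU7 (0.155) and PAU5 (0.168), which make up most of the sum, and was 0.623 for PAU6, 0.725 for PAU4 and 0.909 for PAU3. DAN1 (1.48) and TIR1 (1.44) lay far from it. A small value describes likeness over 5 strains of which 1 stands apart, and says nothing of shared control.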
